A study of Mus musculus with 2 samples.

Results

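The CCAAT/enhancer-binding proteins, or C/EBP factors, are described here through the 6 genes that carry the name in the mouse: Cebpa, Cebpb, Cebpd, Cebpe, Cebpg and Cebpz. They were taken by symbol from the 33696 genes of the deposited matrices, and all 6 were found. They were chosen by their UMI levels across cell classes and their JVL-14 over sham ratios in earlier results of these same data, so those values are a description without a test. The study profiled dura mater, the outer membrane around the brain, of female mice by droplet single-cell RNA sequencing. The JVL-14 library came from mice 14 days after ligature of the jugular veins, and the sham library from mice after sham surgery. The time between sham surgery and sampling, the strain, the age and the number of mice are not known from the labels. In both groups mice were perfused, the dura was peeled off the skullcap and digested with collagenase D and DNase I, and cells of 2 meninges were pooled per well. Sorted viable singlets were loaded (20000 cells). The comparison addresses how dural cells differ when venous outflow through these veins is blocked.

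C/EBP factors bind DNA as dimers through a basic region and a leucine zipper. They are best known for steering myeloid cells, fat cells and the acute phase response of liver and connective tissue, and several are induced by cytokines, glucocorticoids and stress. Cebpa sets the granulocyte and monocyte path, Cebpb acts in macrophages and in granulocyte production under stress, Cebpd is induced in inflammation, and Cebpe drives the last steps of granulocyte maturation. Cebpg lacks the usual activation domain and pairs with other members and with Atf4. Cebpz has no leucine zipper and is related to a yeast factor of ribosome assembly. Transcripts of Cebpb can be translated from several starts into activating and inhibiting proteins, which RNA counts do not tell apart.

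Promoters of 3 members were found in the RefSeq promoter table (assembly GRCm38.p6; 250 bases before to 50 bases after the start), and they are shown because Cebpb carries the main difference below. The Cebpb window lies on the plus strand at chr2:167688665-167688964, the Cebpg window on the minus strand at chr7:35056517-35056816 and the Cebpa window on the plus strand at chr7:35119043-35119342. Capitals mark TGACG, the core of the element bound by CREB and ATF factors, on either strand.
Cebpb: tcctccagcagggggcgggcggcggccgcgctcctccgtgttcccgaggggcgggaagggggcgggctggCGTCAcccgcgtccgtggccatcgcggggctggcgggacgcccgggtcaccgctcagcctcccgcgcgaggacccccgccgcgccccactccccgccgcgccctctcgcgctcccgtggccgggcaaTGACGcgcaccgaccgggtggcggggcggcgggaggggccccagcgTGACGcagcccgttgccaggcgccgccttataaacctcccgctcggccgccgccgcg
Cebpg: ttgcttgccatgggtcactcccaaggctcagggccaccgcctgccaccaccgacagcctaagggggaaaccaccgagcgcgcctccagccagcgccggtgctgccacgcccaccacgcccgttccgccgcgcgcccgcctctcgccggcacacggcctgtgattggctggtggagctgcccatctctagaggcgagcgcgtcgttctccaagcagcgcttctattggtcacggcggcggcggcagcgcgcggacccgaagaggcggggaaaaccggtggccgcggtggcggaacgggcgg
Cebpa: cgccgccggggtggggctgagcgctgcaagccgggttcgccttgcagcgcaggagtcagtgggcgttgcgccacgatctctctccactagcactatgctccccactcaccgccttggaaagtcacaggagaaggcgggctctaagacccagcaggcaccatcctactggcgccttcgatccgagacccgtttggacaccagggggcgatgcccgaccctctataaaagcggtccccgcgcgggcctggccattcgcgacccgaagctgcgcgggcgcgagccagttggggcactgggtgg
The Cebpb window held 3 TGACG matches and the other windows held 0. Among 32851 promoters of the same length, 20.8% held the motif and 1.03% held it at least 3 times. That motif was picked after the sequence had been seen. The C/EBP palindrome TTGCGCAA, found in 0.183% of all promoters, and the looser TTNNGNAA, found in 40.7%, were searched on both strands and were not in these 3 windows. Guanine and cytosine made up 80.7% of the Cebpb window, 71.7% of the Cebpg window and 67.3% of the Cebpa window, against a median of 52.7% over all promoters.

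Values are counts of unique molecular identifiers (UMIs, single captured RNA molecules), summed per cell class and library and given per 1000000 UMIs of that class (CPM). Brackets hold 95% intervals, exact Poisson for a level, exact conditional binomial for a ratio and exact Clopper-Pearson for a share of cells. They cover counting error only. With 1 library per group no test was possible, and differences between mice, dissections or library preparations cannot be told apart from the ligature. The JVL-14 library held 3004 barcodes and 18796260 UMIs and the sham library 5495 barcodes and 33996641 UMIs, of which 2472 and 4710 cells were retained at medians of 4573.5 and 4494 UMIs. The libraries shared 2 barcodes, 1 of them among retained cells. The preparations also held cells from outside the dura, and unevenly: 3 JVL-14 and 248 sham skeletal muscle cells, 0 and 77 choroid plexus cells, and 190 and 176 olfactory neurons. Classes are named from marker genes ("fibroblast-like" is shortened to fibroblast, and so on). In addition, 2 large clusters that scored as fibroblasts but whose 10 leading genes held a marker of another class and none of fibroblasts stayed unnamed and are called Chad-led and Npr3-led cells. The lymphoid class led by Areg and Gata3 also carried the T cell genes Trbc1 and Trbc2 among its leading genes.

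Over all retained cells, Cebpb (ENSMUSG00000056501) was at 74.6 CPM in JVL-14 (1143 UMIs) and 259 CPM in sham (7403 UMIs), a JVL-14 over sham ratio of 0.288 (0.270 to 0.307). Cebpd (ENSMUSG00000071637) was at 397 CPM in JVL-14 and 683 CPM in sham, a ratio of 0.581 (0.564 to 0.598). Cebpa (ENSMUSG00000034957) was at 22.9 CPM in JVL-14 and 26.0 CPM in sham, a ratio of 0.881 (0.774 to 1.002). The other members were higher in JVL-14 over all cells, Cebpe (ENSMUSG00000052435, 13.9 and 8.96 CPM in JVL-14 and sham) with a ratio of 1.55 (1.29 to 1.87). Cebpg (ENSMUSG00000056216, 73.5 and 52.8 CPM) had a ratio of 1.39 (1.29 to 1.51) and Cebpz (ENSMUSG00000024081, 82.8 and 73.5 CPM) 1.13 (1.05 to 1.21). These whole-library ratios also move with which cells were caught, so the values below are given within classes.

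**Figure D1:**
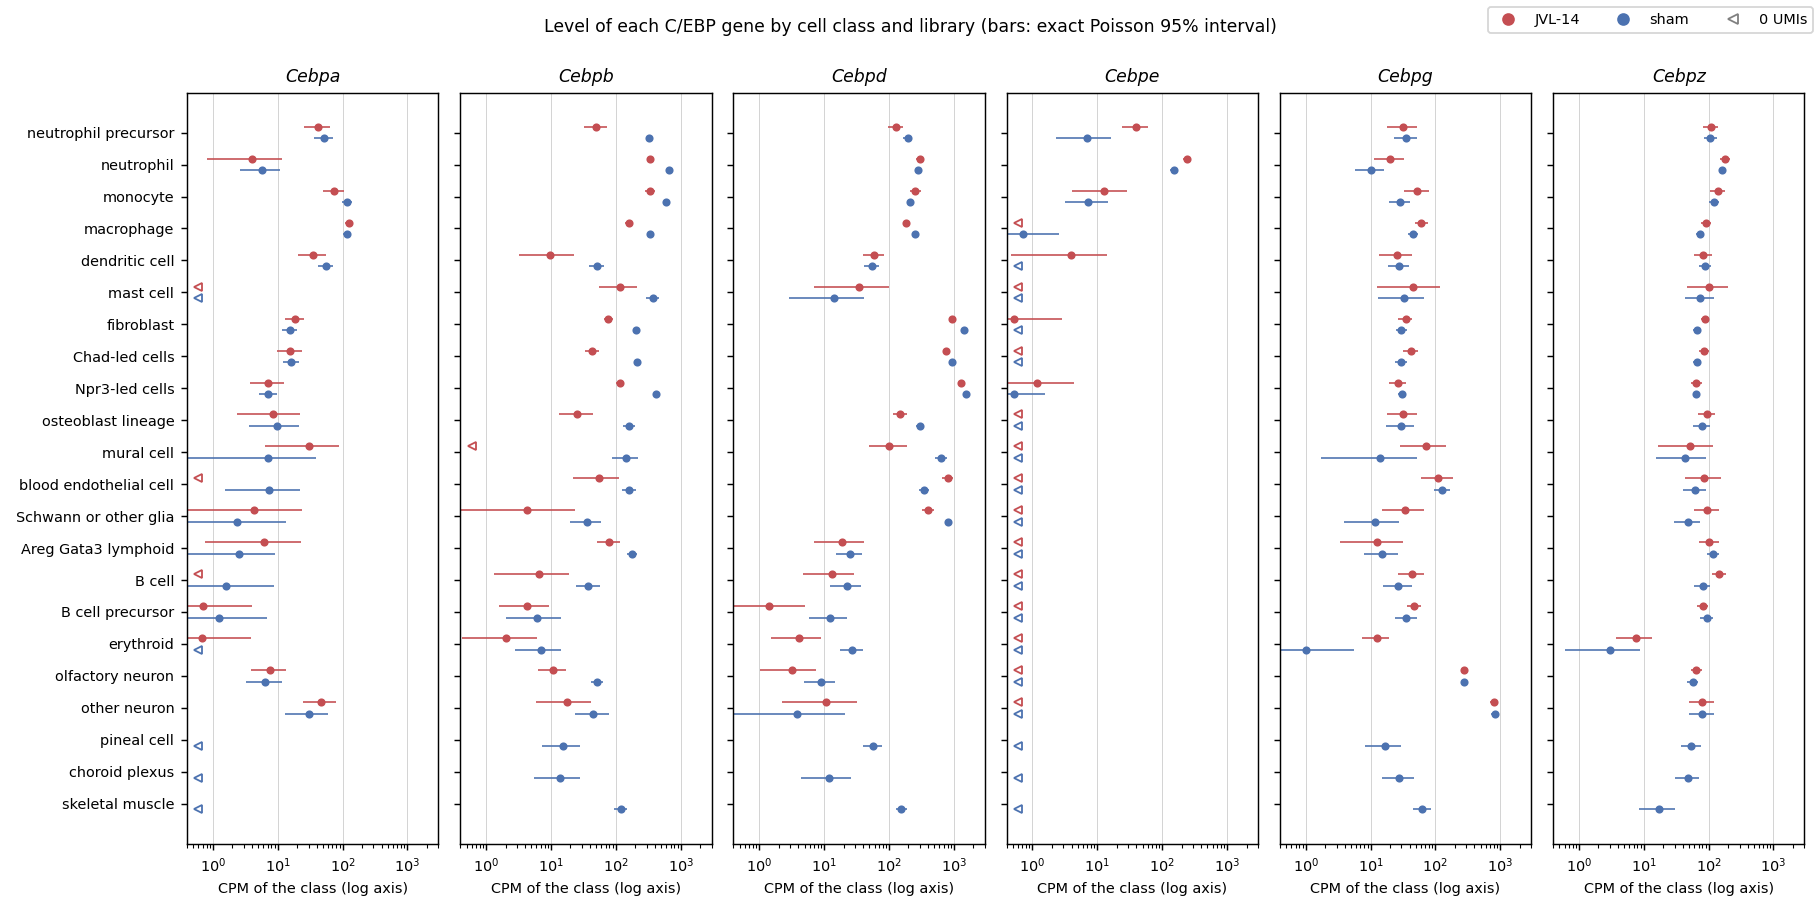
Level of the 6 C/EBP genes in CPM of the class (log axis) in classes with at least 20 cells, JVL-14 above sham, with exact Poisson 95% intervals and open triangles for 0 UMIs. Cebpb lies lower in JVL-14 in neutrophils (342 against 652 CPM) as in fibroblasts (77.4 against 206 CPM), while Cebpg peaks in neurons and Cebpe in neutrophils.

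Cebpa marked the mononuclear phagocytes and the earliest neutrophil stage. It was at 126 CPM in JVL-14 macrophages (108 to 146) and 115 CPM in sham macrophages (103 to 128), at 75.1 CPM (50.6 to 107) and 118 CPM (98.9 to 141) in JVL-14 and sham monocytes, and at 41.7 and 51.9 CPM in JVL-14 and sham neutrophil precursors. Dendritic cells had 35.2 CPM in JVL-14 and 55.8 CPM in sham. In fibroblasts, Chad-led and Npr3-led cells it lay between 7.14 and 18.7 CPM in both libraries. B cell precursors held 1 UMI in each library and the mast cells none. Within macrophages, the cluster led by Ccl3, Ccl4 and MHC class II genes had 141 and 123 CPM in JVL-14 and sham, and the Cd209f-led resident cluster 74.9 and 91.3 CPM.

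A class ratio was counted as past the fold at 1.5 times in either direction with at least 20 UMIs in all, in the 14 classes with at least 50 cells per library. Cebpa could be read in 7 of them. It was past the fold, and lower, in monocytes (0.634, 0.411 to 0.949) and dendritic cells (0.632, 0.351 to 1.09), where 11.8% and 13.1% of all genes were as low. Only the monocyte interval lay below 1. The 5 cells with most Cebpa UMIs held 40.0% of them in JVL-14 monocytes and 28.5% in sham monocytes, where a single cell held 19. The macrophage ratio was 1.09 (0.901 to 1.32).

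Cebpb was lower in JVL-14 in each of the 11 classes where it could be read, and past the fold in each. The ratios ran from 0.160 in the osteoblast lineage to 0.563 in monocytes with a median of 0.282, and no interval reached 1. The share of all genes at least 1.5-fold lower was 9.68% in fibroblasts, 7.63% in Chad-led cells, 7.78% in Npr3-led cells, 9.21% in macrophages, 11.8% in monocytes and 14.6% in neutrophils. It was 11.7% in the osteoblast lineage, 13.1% in dendritic cells, 15.8% in Areg Gata3 lymphoid cells, 7.44% in B cells and 8.88% in olfactory neurons. Of 4420 genes read in at least 11 classes, 13 (0.294%) were past the fold downward in 11 or more and 2 upward. Those 13 were Acta1, Alyref, Cebpb, Hnrnpd, Mtch1, Otulin, Ppm1a, S100a5, Sap30l, Smap1, Suds3, Ttr and Ube2m. They include Acta1 of skeletal muscle and Ttr of choroid plexus, tissues caught almost only in sham. Counting Cebpb among them is a description, since the gene was picked for such a pattern.

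Neutrophils and monocytes had the highest Cebpb levels in both libraries. Neutrophils had 342 CPM in JVL-14 (302 to 387) and 652 CPM in sham (613 to 693), a ratio of 0.525 (0.456 to 0.602). Monocytes had 338 CPM in JVL-14 (283 to 400) and 599 CPM in sham (554 to 647), a ratio of 0.563 (0.465 to 0.679). Macrophages had 161 CPM in JVL-14 (140 to 184) and 339 CPM in sham (318 to 361), a ratio of 0.475 (0.408 to 0.551). The intervals of neutrophils and monocytes overlapped within each library, and those of macrophages lay below both. Both macrophage clusters showed it, with 179 CPM in JVL-14 and 382 CPM in sham in the Ccl3-led cluster (0.468, 0.397 to 0.549) and 103 and 209 CPM in the Cd209f-led resident cluster (0.492, 0.327 to 0.722). Dendritic cells were far lower, at 9.79 CPM in JVL-14 (5 UMIs) and 51.0 CPM in sham (54 UMIs), a ratio of 0.192. Their log2 ratio, -2.26, was -0.61 with cells thinned to 1000 UMIs. Without the 5 cells with most UMIs it was -5.08. The 5 JVL-14 UMIs sit in at most 5 cells, so that removal had to leave none and its value carries no information.

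Npr3-led cells had 118 CPM in JVL-14 (103 to 136) and 420 CPM in sham (403 to 437), a ratio of 0.282 (0.243 to 0.326). Chad-led cells had 43.5 CPM in JVL-14 (33.5 to 55.5) and 214 CPM in sham (198 to 231), a ratio of 0.203 (0.155 to 0.263), the lowest but 20 of 10523 genes. Fibroblasts had 77.4 CPM in JVL-14 (65.4 to 90.8) and 206 CPM in sham (191 to 221), a ratio of 0.376 (0.314 to 0.449). Fibroblast clusters differed in how low it was. The Gsta4-led cluster had 48.8 CPM in JVL-14 and 242 CPM in sham (0.202, 0.130 to 0.302), the Inmt-led cluster 98.4 and 209 CPM (0.470, 0.381 to 0.576), and the Apod-led cluster, with 48 JVL-14 cells, 14.8 and 188 CPM. The Clec3b-led fibroblast cluster held 3 JVL-14 and 65 sham cells, so all fibroblast sums mix in cells found almost only in sham. Leaving that cluster out (394 JVL-14 and 721 sham cells kept) was 1 of the alternatives, and Cebpb stayed past the fold downward. The size of the fibroblast difference moved with the clustering: its log2 ratio was -1.41, and between -2.94 (libraries clustered separately) and -1.15 (Leiden resolution 0.5) under the alternatives. Clustered separately, 208 JVL-14 but 0 sham cells were named Npr3-led, beside 207 and 1487 fibroblasts. The fibroblast sums behind -2.94 therefore need not hold like cells in both libraries. The osteoblast lineage had 25.7 CPM in JVL-14 and 161 CPM in sham (0.160, 0.0799 to 0.292). Classes under 50 cells pointed the same way: mural cells held 0 UMIs in 29 JVL-14 cells (3 UMIs would be 30.5 CPM) and 142 CPM in sham, mast cells 115 and 370 CPM, and endothelial cells 55.0 and 162 CPM.

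**Figure D2:**
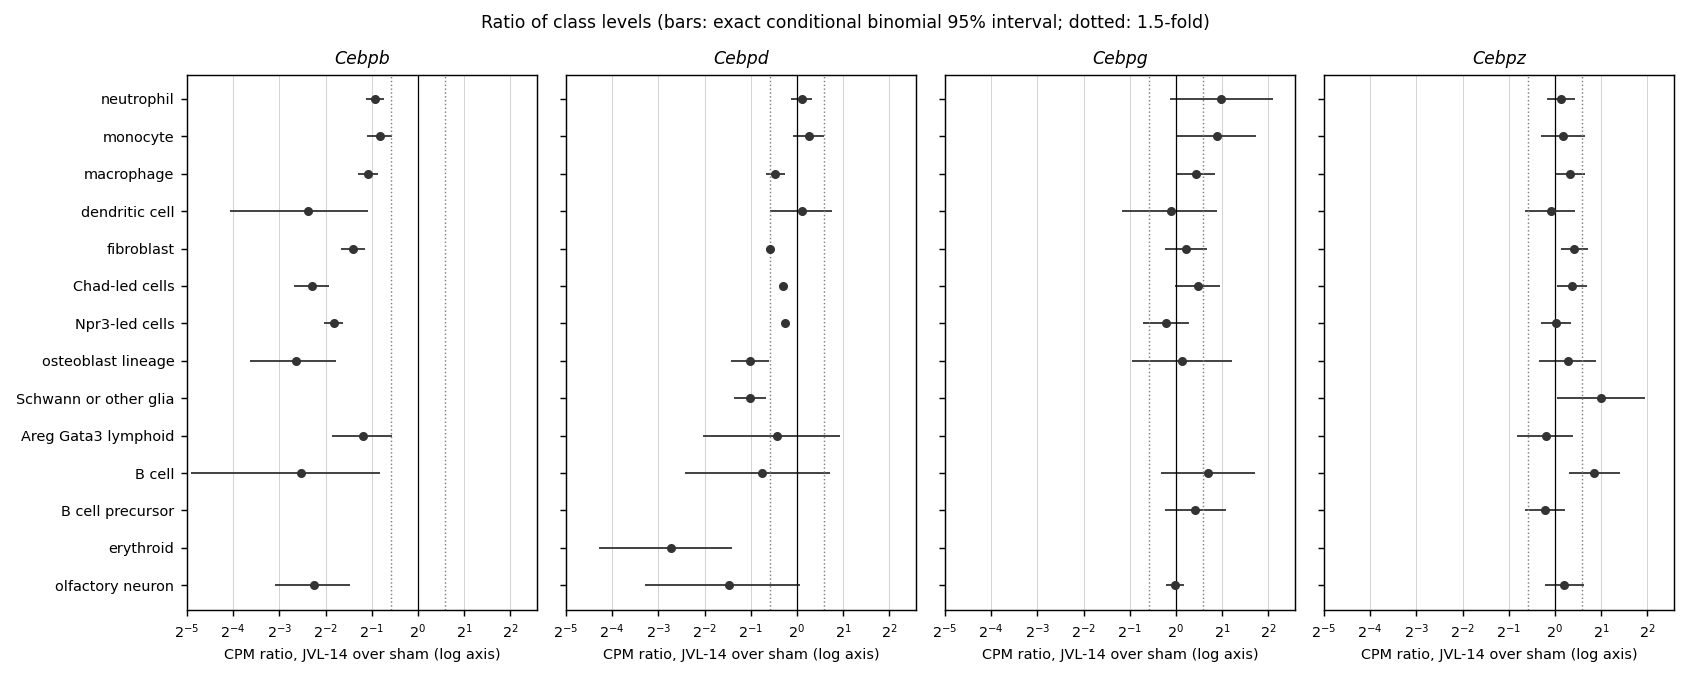
CPM ratio JVL-14 over sham (log axis) of Cebpb, Cebpd, Cebpg and Cebpz in each class where the gene had at least 20 UMIs, with exact conditional binomial 95% intervals and dotted lines at 1.5-fold. The 11 Cebpb points lie below 1, between 0.160 and 0.563, while the Cebpz points lie between 0.863 and 1.99.

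B cell precursors, which are not known for Cebpb, had 4.26 CPM in JVL-14 (6 UMIs) and 6.17 CPM in sham (5 UMIs). B cells (6.53 and 38.0 CPM, from 3 and 24 UMIs) and olfactory neurons (10.8 and 51.2 CPM, from 17 and 87 UMIs) stood nearer to that level in JVL-14 than in sham. The share of cells with a Cebpb UMI was 22.2% in JVL-14 fibroblasts and 46.4% in sham fibroblasts, at median depths of 3039 and 3768.5 UMIs. In B cell precursors it was 1.41% in JVL-14 and 2.36% in sham at 3276 and 2709.5 UMIs. With each cell thinned to 1000 UMIs, the fibroblast share was 6.86% in JVL-14 (4.44 to 10.0) and 17.7% in sham (14.9 to 20.7), and that of B cell precursors 0.370% and 0.508%. Thinned macrophages had 9.83% in JVL-14 and 26.1% in sham (unthinned 32.9% and 49.4%), and thinned neutrophils 36.2% and 54.9% (unthinned 73.9% and 94.3%). In fibroblasts, macrophages and neutrophils a smaller share of JVL-14 than of sham cells showed a Cebpb UMI at the same depth. Thinning brought the monocyte log2 ratio to -0.50, short of the fold, against -0.82 with all UMIs, and clustering the libraries separately brought it to -2.25. That clustering named 114 JVL-14 and 59 sham monocytes, and 0 and 180 dendritic cells, so these monocytes need not be like cells. Thinning also brought the olfactory neuron log2 ratio to -1.21, against -2.21.

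**Figure D3:**
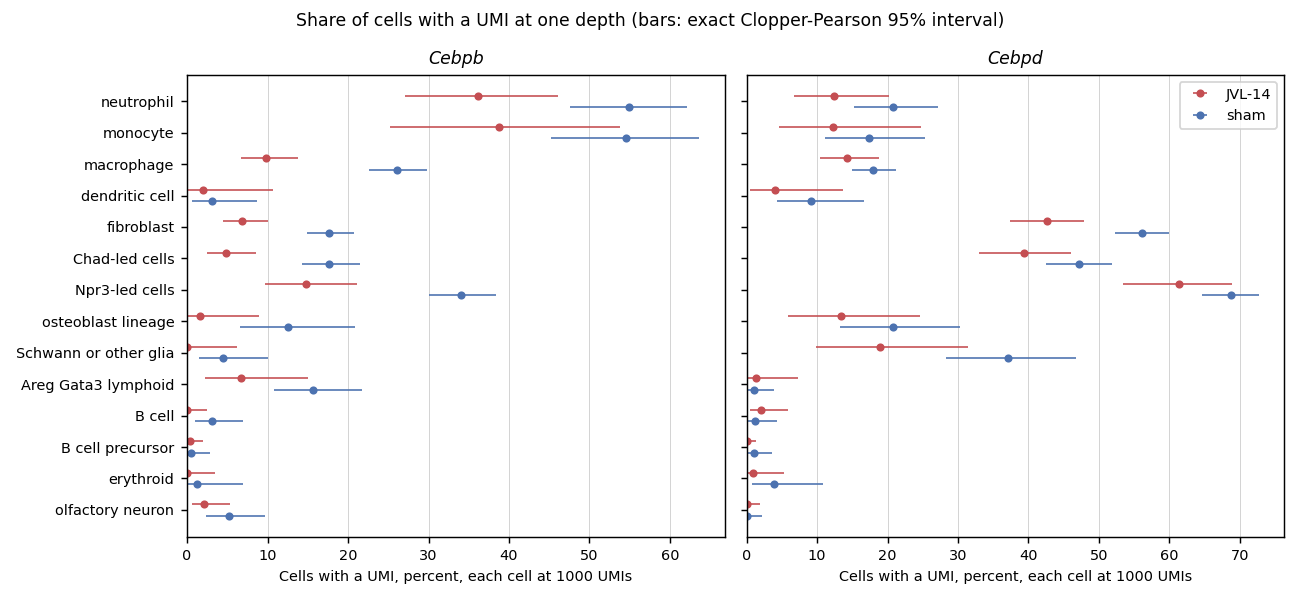
Percent of cells with a Cebpb or Cebpd UMI after each cell was thinned to 1000 UMIs, JVL-14 above sham, with exact Clopper-Pearson 95% intervals. For Cebpb the JVL-14 and sham intervals are apart in fibroblasts, Chad-led cells, Npr3-led cells, macrophages and neutrophils, and overlap in monocytes.

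Among classes with at least 50 cells per library, Cebpd was highest in Npr3-led cells, then fibroblasts, in both libraries. It was at 1287 CPM in JVL-14 and 1549 CPM in sham in Npr3-led cells, at 949 CPM (906 to 994) and 1422 CPM (1384 to 1461) in JVL-14 and sham fibroblasts, and at 752 and 923 CPM in Chad-led cells. Among fibroblasts the Apod-led cluster was the highest, with 1964 CPM in JVL-14 and 2140 CPM in sham. Schwann or other glia had 403 CPM in JVL-14 and 813 CPM in sham, and the osteoblast lineage 150 and 303 CPM. Myeloid classes were lower, with 298 and 279 CPM in JVL-14 and sham neutrophils, 255 and 214 CPM in monocytes and 184 and 255 CPM in macrophages. B cell precursors held 1.42 CPM in JVL-14 and 12.3 CPM in sham.

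Cebpd was past the fold in 5 of 13 classes, each time lower in JVL-14. Schwann or other glia had a ratio of 0.496 (0.390 to 0.624) where 20.4% of genes were as low. The osteoblast lineage had 0.493 (0.369 to 0.653) where 11.7% were. With cells thinned to 1000 UMIs the Cebpd log2 ratio of the osteoblast lineage was 0.0067, against -1.01 with all UMIs. Erythroid cells gave 0.152 (0.0513 to 0.376, from 6 and 27 UMIs), where 6.47% of genes were lower and 84% higher past the fold and the median log2 ratio of all genes was 1.87. Of the 27 sham UMIs there, 92.6% sat in 5 cells. Olfactory neurons (5 and 15 UMIs) and B cells (6 and 14 UMIs), where 8.88% and 7.44% of genes were as low, had intervals that held 1. The ratio was 0.667 (0.632 to 0.704) in fibroblasts, just short of the fold and past it under 5 of 14 alternatives, and it was 0.815 in Chad-led and 0.831 in Npr3-led cells. Monocytes (1.19, 0.935 to 1.51) and neutrophils (1.07, 0.908 to 1.26) had ratios above 1, and blood endothelial cells, with 45 JVL-14 cells, had 809 CPM in JVL-14 and 346 CPM in sham, 57.3% and 27.3% of these UMIs in 5 cells. Within the glia, the Kcna1-led cluster had 574 CPM in JVL-14 and 1258 CPM in sham.

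Detection of Cebpb in cells with and without a Cebpd UMI was counted at the depth of 1000 UMIs, with no test of the difference. In Npr3-led cells, 18.0% of JVL-14 cells with Cebpd had a Cebpb UMI, against 9.52% of those without, and in sham 37.4% against 26.8%. In fibroblasts the shares were 8.05% (12 of 149 cells) and 5.97% (12 of 201) in JVL-14 and 20.1% and 14.5% in sham. In Chad-led cells they were 5.62% (5 of 89) and 4.38% (6 of 137) in JVL-14 and 21.0% and 14.6% in sham. In macrophages they were 19.0% and 8.30% in JVL-14 and 26.9% and 25.9% in sham. Neutrophils had 30.8% and 37.0% in JVL-14 and 62.5% and 52.9% in sham. Cells of all clusters of a class are mixed in these shares, and some rest on few cells (8 JVL-14 macrophages with both genes).

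Cebpe was read only in the neutrophil class, which had 243 CPM in JVL-14 (209 to 281) and 150 CPM in sham (131 to 170). Its ratio of 1.62 (1.33 to 1.97) was past the fold, where 10% of all genes were as high. Monocytes held 5 and 8 UMIs and fibroblasts 1 and 0. The share of neutrophils with a UMI was 45.0% in JVL-14 and 37.1% in sham, and 17.1% and 10.4% at 1000 UMIs, with overlapping intervals (10.5 to 25.7 and 6.45 to 15.6).

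The neutrophil lineage fell into 3 clusters, led by Elane (primary granule stage, 27 JVL-14 and 30 sham cells), by Camp and Ltf (secondary granule stage, 64 and 119 cells) and by Stfa2l1 and Retnlg (mature, 47 and 75 cells). Cebpa was seen mainly in the Elane-led cells, with 3.45 and 4.75 CPM in JVL-14 and sham Camp-led cells. Cebpe peaked in Camp-led cells, at 311 CPM in JVL-14 (267 to 360) and 180 CPM in sham (158 to 205), and was at 17.2 and 30.7 CPM in mature cells. Elane-led cells had 39.7 CPM of Cebpe in JVL-14 (24.3 to 61.4) and 7.01 CPM in sham (2.28 to 16.4), in 5 and 3 cells. Cebpb was highest in mature cells, at 836 CPM in JVL-14 (706 to 983) and 1484 CPM in sham (1354 to 1622), and lower in JVL-14 at each stage, with 193 against 437 CPM in Camp-led and 49.7 against 331 CPM in Elane-led cells. In both libraries Cebpa was highest in the first stage, Cebpe in the second and Cebpb in the last. Elane itself was at 1.73 CPM in JVL-14 and 797 CPM in sham Camp-led cells, where 1 of 64 and 2 of 119 cells held a UMI of it, so the sham level there rests on 2 cells. It was at 5095 and 925 CPM in Elane-led cells, in 14 of 27 and 21 of 30 cells. Without neutrophils holding an Elane or Mpo UMI, an alternative chosen after seeing the data, the log2 ratio of the class was 0.67 for Cebpe and -0.91 for Cebpb, against 0.70 and -0.93 with them. Averaged over the Camp-led and mature clusters, that of Cebpe was 0.16. In Camp-led cells alone it was 0.79, from 180 JVL-14 and 228 sham UMIs, while mature cells held 3 and 10 UMIs.

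**Figure D4:**
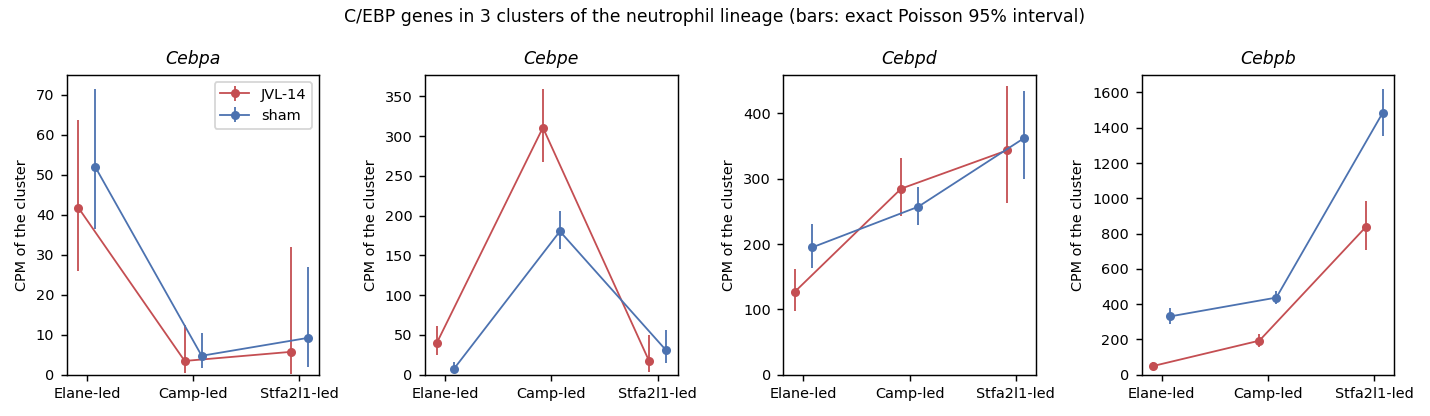
Level in CPM of Cebpa, Cebpe, Cebpd and Cebpb in the Elane-led, Camp-led and Stfa2l1-led clusters, JVL-14 left of sham, with exact Poisson 95% intervals. Cebpe peaks in Camp-led cells at 311 CPM in JVL-14 and 180 CPM in sham, and Cebpb climbs to 836 and 1484 CPM in mature cells.

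Cebpg stood out in neurons. Neurons outside the olfactory class (led by Sox11 and Gap43; 27 JVL-14 and 29 sham cells) had 790 CPM in JVL-14 (689 to 902) and 831 CPM in sham (725 to 948), and olfactory neurons 273 CPM (248 to 300) and 278 CPM (253 to 304). Olfactory neurons gave a ratio of 0.983 (0.860 to 1.12), which differs from 1 by less than the counting error. Olfactory neurons are not dural cells. Blood endothelial cells had 110 and 127 CPM in JVL-14 and sham, macrophages 61.0 and 45.3 CPM, and fibroblasts 34.8 and 30.0 CPM. Cebpg was past the fold in 3 of 11 classes, each time higher in JVL-14: monocytes (1.86, 1.02 to 3.34, where 13.2% of genes were as high), neutrophils (1.98, 0.910 to 4.27) and B cells (1.62, 0.804 to 3.29). The share of all genes at least 1.5-fold higher was 10% in neutrophils, 21.5% in B cells, 8.55% in macrophages, 10.5% in dendritic cells and 11.5% in the osteoblast lineage. It was 7.57% in fibroblasts, 8.23% in Chad-led cells, 9.42% in Npr3-led cells, 7.71% in olfactory neurons, 12.1% in Areg Gata3 lymphoid cells and 8.93% in B cell precursors (15.6% lower). The neutrophil and B cell intervals held 1.

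Cebpz was the most even member. Outside erythroid and muscle cells it lay between 42.6 and 178 CPM in both libraries, highest in neutrophils (178 CPM in JVL-14 and 162 CPM in sham). It was past the fold in 2 of 13 classes, higher in JVL-14 B cells (1.81, 1.24 to 2.65, where 21.5% of genes were as high) and in glia (1.99, 1.04 to 3.84, where 24.6% were). In B cells the median log2 ratio of all genes was 0.24, and relative to it Cebpz was at 0.61, Cebpg at 0.45 and Cebpb at -2.59. Fibroblasts gave a Cebpz ratio of 1.34 (1.09 to 1.63). The genome also carries an opposite-strand gene, Cebpzos, and the sources used here do not say whether counting used the strand.

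The genes whose levels were most like each member were taken by Pearson correlation of log2(CPM + 10) over 33 points, the class by library sums with at least 50 cells, among 8867 genes. The points of a library share its depth and preparation, so these values describe. Cebpa ran with Ifi207 (r = 0.93), Clec4a3, Mcub, Clec4a1 and Rab7b, of which the Clec4a genes are myeloid lectin receptors. Cebpb ran with Fkbp5 (0.76), Morrbid, Per1, Fosl2 and Hacd4; Fkbp5 and Per1 are textbook glucocorticoid-induced genes, and Morrbid is a long noncoding RNA of short-lived myeloid cells. Cebpd ran with Tnfrsf1a (0.85), Ctsl, Plod1, Anxa2 and Cd302, Cebpg with Prpf4 (0.84), Ccdc28b, Hdac9, Stmn2 and Pde4a, and Cebpz with Wdr1 (0.94), Cap1, Myl12b, Actg1 and Actr2, mostly genes of the actin skeleton. Between members, r was 0.55 for Cebpb and Cebpd, 0.44 for Cebpa and Cebpb, and -0.12 for Cebpd and Cebpg.

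Genes known to be induced by glucocorticoids, which also act on Cebpb and Cebpd, were more often past the fold downward than upward in 13 of the 14 classes, the exception being B cell precursors with 1 of 9 downward and 2 upward. In Chad-led cells 9 of 14 read were past the fold downward and 0 upward (median log2 ratio -0.96, against 0.04 over all genes), where 7.63% and 8.23% of all genes were past it downward and upward. In fibroblasts it was 7 of 14 and 0 (median -0.60, against 0.01), with 9.68% and 7.57% over all genes. Npr3-led cells had 6 of 14 and 0 (-0.39), with 7.78% and 9.42% over all genes, and neutrophils 5 of 10 and 0 (-0.57), with 14.6% and 10%. Macrophages had 5 and 1 of 14 (-0.15), with 9.21% and 8.55% over all genes, and monocytes 3 and 0 of 12 (-0.27), with 11.8% and 13.2%. Downward counts were 10 of 12 in the osteoblast lineage (11.7% over all genes) and 5 of 12 in dendritic cells (13.1%). Glia had 4 of 11 (20.4%), Areg Gata3 lymphoid cells 4 of 10 (15.8%) and olfactory neurons 2 of 10 (8.88%). B cells had 4 of 10 downward (7.44%) and 1 upward (21.5%), and erythroid cells 5 of 7 (6.47%) and 1 (84%). Fkbp5, a chaperone of the steroid receptors, was at 17.7 CPM in JVL-14 and 69.2 CPM in sham fibroblasts (0.255, 0.173 to 0.366), and at 26.5 and 125 CPM in macrophages (0.211). Zbtb16, a transcription factor, was at 3.63 and 21.6 CPM in JVL-14 and sham fibroblasts, and the metallothionein Mt2 at 89.0 and 297 CPM in Chad-led cells. Others stayed within the fold: Per1, a clock gene, was at 47.2 CPM in JVL-14 and 49.2 CPM in sham fibroblasts, and Tsc22d3, an anti-inflammatory leucine zipper protein, at 866 and 905 CPM. In monocytes Tsc22d3 (1.47, 1.17 to 1.85) and Dusp1 (1.425, 1.24 to 1.64) were higher in JVL-14, short of the fold. A part of glucocorticoids in the Cebpb and Cebpd differences was not tested.

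**Figure D5:**
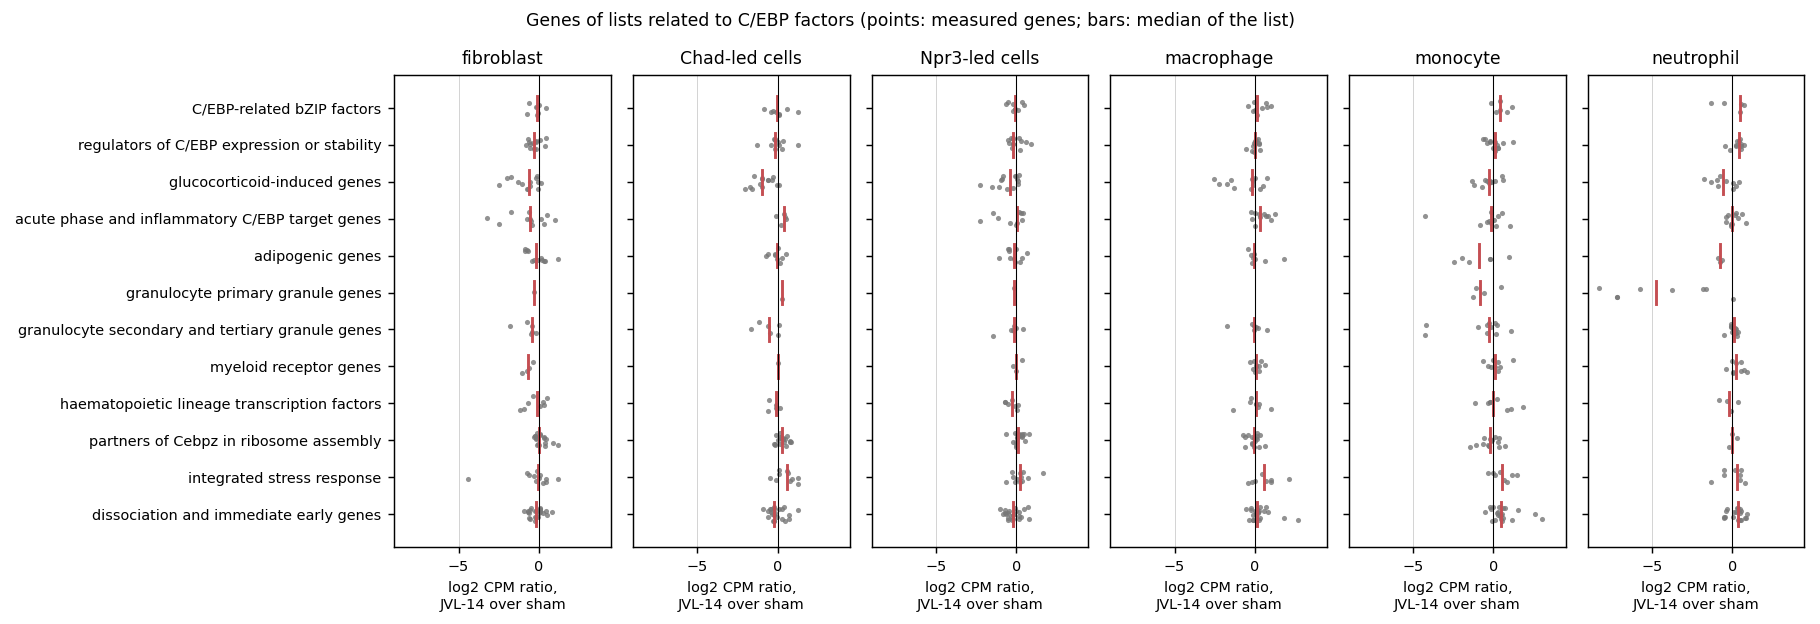
Log2 CPM ratio JVL-14 over sham of the genes read in each list (points) and the median of the list (red bars), in 6 classes. The glucocorticoid-induced genes have medians from -0.96 in Chad-led cells to -0.15 in macrophages, and the primary granule genes, whose Elane and Mpo UMIs sit in few cells, lie at -4.74 in neutrophils.

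Acute phase and inflammatory genes with known C/EBP sites were split between classes. In fibroblasts 5 of 12 were past the fold downward and 1 upward (median -0.52), with 9.68% and 7.57% over all genes. The monocyte attractant Ccl2 was at 8.31 CPM in JVL-14 and 79.5 CPM in sham (0.104, 0.0589 to 0.173) and the neutrophil attractant Cxcl1 at 58.1 and 195 CPM, while Ptgs2, the inducible prostaglandin synthase, was at 87.2 and 43.8 CPM (1.99, 1.59 to 2.49). In macrophages 0 of 11 were past it downward and 4 upward (median 0.32), with 9.21% and 8.55% over all genes: Il1b (634 and 391 CPM), Tnf (129 and 65.1 CPM), Cxcl1 and Ptgs2. Immediate early and dissociation genes summed to 12056 CPM in JVL-14 and 14626 CPM in sham fibroblasts, with 5 of 23 lower and 1 higher. In macrophages 0 were lower and 4 higher, and Hspa1b was at 277 and 42.1 CPM there; the part of the dissociation in these results was not tested. In neutrophils 0 of 11 inflammatory genes were lower and 1 higher (median -0.01), with 14.6% and 10% over all genes.

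In fibroblasts 2 of 8 leucine zipper factors related to the C/EBP family were lower past the fold, Atf3 (140 and 216 CPM in JVL-14 and sham) and Atf5, and 0 higher; in macrophages 0 of 9 were lower and 3 higher, Atf3 (1668 and 1042 CPM), Batf3 and Ddit3, whose product blocks C/EBP binding (75.7 and 37.1 CPM). Of the regulators of C/EBP expression or stability, 3 of 13 were lower in fibroblasts, Stat3 (60.2 and 107 CPM), Osmr and Il6ra, and 0 higher, Il6ra from 5 and 16 UMIs only. In macrophages 0 of 12 were past the fold. Trib1, an adaptor for C/EBP breakdown, was at 137 and 110 CPM in JVL-14 and sham macrophages, and the glucocorticoid receptor gene Nr3c1 at 115 and 112 CPM there and at 220 and 211 CPM in fibroblasts. Integrated stress response genes, to which the Cebpg partner Atf4 belongs, were past the fold upward for 5 of 10 in Chad-led cells (median 0.61), 4 of 8 in macrophages, 4 of 8 in monocytes, 2 of 12 in Npr3-led cells and 1 of 12 in fibroblasts. Over all genes, the shares past the fold upward were 8.23%, 8.55%, 13.2%, 9.42% and 7.57% in these classes, in that order. Downward it was 0, 0, 0, 1 and 3 list genes in the same classes, with 7.63%, 9.21%, 11.8%, 7.78% and 9.68% over all genes. Atf4 itself was at 140 and 138 CPM in JVL-14 and sham macrophages.

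In neutrophils, 7 of 8 primary granule genes were past the fold downward (median -4.74), Elane with 1.33 CPM in JVL-14 and 634 CPM in sham, Mpo with 1.33 and 293 CPM, where 14.6% of all genes were as low. All Elane and Mpo UMIs of the class sat in 2 of 111 JVL-14 and 5 of 194 sham cells. Of 16 secondary and tertiary granule genes, a group that includes known Cebpe targets, 0 were past the fold in either direction (median 0.13). Hp was at 1829 and 1960 CPM in JVL-14 and sham. Of 18 partners of Cebpz in ribosome assembly, 0 were lower and 2 higher in fibroblasts (median 0.04), 0 and 4 in Chad-led cells (median 0.27), 3 and 1 in macrophages (median -0.03), and 4 and 1 of 15 in monocytes (median -0.25). Over all genes, the shares lower and higher were 9.68% and 7.57% in fibroblasts and 7.63% and 8.23% in Chad-led cells. They were 9.21% and 8.55% in macrophages and 11.8% and 13.2% in monocytes.

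Markers of other tissues moved with the libraries too. Of 13 such genes, 9 were lower past the fold and 2 higher in fibroblasts, with 9.68% and 7.57% over all genes. Acta1 of muscle was at 2.60 CPM in JVL-14 and 130 CPM in sham fibroblasts and haemoglobin Hbb-bs at 1284 and 372 CPM. Summed over the list, fibroblasts had 1819 CPM in JVL-14 and 988 CPM in sham with 2 and 0 genes at 0, and macrophages 555 and 1149 CPM with 1 and 0 at 0. The sham tissues behind these markers held Cebpb at 120 CPM (skeletal muscle) and 13.8 CPM (choroid plexus). Sham fibroblasts held 206 CPM, sham B cells 38.0 CPM and sham neutrophils 652 CPM. The part of free RNA in the Cebpb difference was not tested.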

How the data were processed

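The deposited files hold counts of UMIs per gene and barcode, not normalised, which the authors made with Cell Ranger 8.0.0, per the file headers, and mm39, per the submitters' processing notes. Gene annotation: not given in the sources used here. Counts were used as deposited. Cells with under 200 genes (244 JVL-14, 266 sham) or over 10% mitochondrial UMIs (152, 278) were left out. The automatic threshold of Scrublet (scanpy 1.11.5) marked 0.181% and 0.0765%, under 0.5%, so the top 5% of scores per library were removed as doublets (136, 241). Both libraries were clustered together (2000 variable genes, 30 components, 15 neighbours, Leiden resolution 1), giving 30 clusters, named from markers of 32 classes by score, with numeric limits set after seeing the data. In all, 16.0% of JVL-14 and 21.3% of sham cells stayed unnamed. Names were rebuilt here, so classes may differ from those of the study.

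Log2 ratios had 0.5 added to each count, and CPM ratios with intervals were computed as described beside the values. The ratio step was tested on simulated data. Those class sums were drawn as Poisson counts, so the check covers the calculation and not spread between cells or mice. Members, 13 gene lists and tests were chosen with earlier results of these data known. Text names all members and the 5 most similar genes of each member with at least 500 UMIs. From each list, the 2 highest and 2 lowest ratios in the fibroblast, macrophage and neutrophil classes were marked for naming. Only part of these genes are named in the text. Other names, such as Per1 or Atf4, were picked for their role or after their values were seen. Protein sequences were not used here. The files hold 26 symbols that more than 1 gene ID carries, none of them a member. Each group has 1 library, so p-values are not given. Python 3.11.15, numpy 2.4.6, scipy 1.17.1, pandas 2.3.3, leidenalg 0.10.2 and scikit-learn 1.9.0 were used.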

Additional observations from a re-analysis of the deposited data

How the results depend on the processing

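Cebpb was lower past 1.5-fold in every class that gave a value under each alternative (8 to 11 classes), except for 10 of 11 with cells thinned to 1000 UMIs. The fibroblast log2 ratio of Cebpb, -1.41 as reported, was -2.26 with at least 500 genes per cell, -1.83 with at most 5% mitochondrial UMIs, -1.76 without doublet removal, -2.94 with libraries clustered separately, -1.80 and -1.15 at Leiden resolutions 2 and 0.5, -1.74 as a mean over cells and -1.96 averaged over clusters. For macrophages it was -1.35 with thinned cells (-1.07 reported). The fibroblast log2 ratio of Cebpd, -0.58 as reported, was -0.74 with at least 500 genes, -0.43 with at most 5% mitochondrial UMIs, -0.71 with separate clustering, -0.38 at resolution 2, -0.68 without the 5 cells with most UMIs and -0.43 averaged over clusters, so it crossed the fold in either direction. Cebpe in neutrophils (0.70) was 1.07 without doublet removal and 0.16 averaged over clusters, where the mature cluster held 3 JVL-14 and 10 sham UMIs. Thinning turned Cebpd to 0.64 in B cells and 0.0067 in the osteoblast lineage, where few UMIs remained. These causes were not tested, though fibroblast cell numbers changed with each clustering (397 JVL-14 and 786 sham cells as reported, 207 and 1487 clustered separately). Npr3-led cells were not found at 5% mitochondrial UMIs or resolution 2, dendritic cells not at resolution 0.5, and erythroid Cebpd gave no value at 500 genes. Clustered separately, Npr3-led cells were named only in JVL-14 (208 cells). Dendritic cells (180) and Areg Gata3 lymphoid cells (182) were then named only in sham, so these classes gave no ratio. Of 760 member ratios under alternatives, 42 changed sign, 2 of them where the reported ratio was past the fold. Leaving out those 2, 696 stayed within the counting interval and 62 left it. No paired analysis was possible because each group has 1 library and no result comes from a test. Depth limits Cebpe, Cebpg and lymphoid Cebpd, with few UMIs per class.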

Other observations

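Further lists tied to the family showed these counts, where 9.68% of all genes were lower and 7.57% higher past the fold in fibroblasts and 9.21% and 8.55% in macrophages. Adipogenic genes, which Cebpb, Cebpd and Cebpa help to switch on in fat cell precursors, were past the fold downward for 4 of 12 and upward for 1 in fibroblasts (median log2 ratio -0.20), with the fatty acid carrier Fabp4 at 14.5 CPM in JVL-14 and 6.22 CPM in sham and Klf15, a glucocorticoid-responsive factor, at 15.1 and 28.1 CPM. In macrophages 0 of 8 were lower and 2 higher. Of the myeloid receptor genes, 3 of 4 were lower and 0 higher in fibroblasts, 0 of 10 were lower and 1 higher in macrophages, and Tlr2 was at 76.9 CPM in JVL-14 and 40.9 CPM in sham neutrophils (1.88, 1.30 to 2.72). Of haematopoietic lineage factors, 3 of 8 were lower in fibroblasts, 1 of 8 was lower and 1 higher in macrophages, Myc with 32.3 CPM in JVL-14 and 15.9 CPM in sham being the higher, and Spi1, the myeloid master factor, was at 452 and 355 CPM in neutrophils.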
